A study of Mus musculus with 4 samples.

Results

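Podocytes are the epithelial cells that wrap the capillaries of the glomerulus, and 30 genes of these cells and of the slit diaphragm between their foot processes were followed here. The genes were listed by name, and 29 of the 30 had a row of their own in each table, out of 22662 named genes with usable values in all 4. Lama5, a laminin alpha chain, appeared there only in a joint row with a microRNA, so it was not among the 29. All 29 passed the filter on low values (at least 1 FPKM in 2 or more libraries, where FPKM is the density of sequenced fragments scaled to transcript length and library size) and were among the 13287 genes tested. Because of the scaling to length, levels can be set beside each other between genes.

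The samples were E18.5 mouse kidneys of mixed strain, taken whole and profiled by poly(A) RNA sequencing. The 2 control libraries had the genotype Hnf4a c/+ with Six2GFPcre and the 2 mutant libraries Hnf4a c/c with Six2GFPcre, where c is the conditional (floxed) allele. Six2GFPcre is active in the nephron lineage, from which podocytes and tubule epithelium both descend, so the controls also carry the Cre and 1 conditional allele and are not wild type. The labels do not say whether a library came from 1 embryo or several, so p-values describe only the spread between these libraries. The comparison asks how the podocyte genes stood in kidneys from which Hnf4a, a nuclear receptor of the proximal tubule, was to be removed.

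The slit diaphragm is a cell junction built of the adhesion proteins nephrin and its relatives, tied by adaptors to the actin skeleton of the foot processes. On its vascular side the podocyte is anchored by integrins to a laminin and collagen basement membrane, and it secretes Vegfa, which maintains the capillary endothelium. A set of transcription factors, Wt1, Tcf21, Lmx1b, the Foxc pair and others, establishes and maintains the podocyte in the developing glomerulus.

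Hnf4a itself had levels of 89.3 and 84.6 FPKM in controls and of 87.1 and 78.5 FPKM in mutants. The value covers the whole gene and does not check the genotype. The tables gave no read totals, and between 13552 and 13646 named genes reached 1 FPKM in a library. Rows without a gene name, which were left out, held 48.9% and 45.0% of the FPKM in controls and 48.8% and 41.9% in mutants. The part of this in the replicate differences was not tested. In each group replicate 1 carried Ddx3y (27.7 and 26.4 FPKM) with Xist near 0, and replicate 2 carried Xist (81.0 and 74.0 FPKM) with Ddx3y near 0. The replicates of each group thus differed by sex, Ddx3y being Y-linked and Xist the RNA of the inactive X. Replicate number and sex cannot be told apart in any replicate difference given here, and the model held group alone.

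None of the 29 podocyte genes differed between mutant and control kidneys past the threshold, an adjusted p under 0.05 by limma on log2(FPKM + 1), where 0.158% of all tested genes did. At an unadjusted p under 0.05, 2 of 29 did, Actn4 and Foxc2 (6.90%, beside 7.24% of all tested genes). The 95% interval of the log2 change lay inside -1 to 1 for 28 of the 29 genes, all but Lmx1b, beside 86.0% of all tested genes. The median log2 change of the 29 was -0.06, with a range from -0.57 for Lmx1b to 0.30 for Arhgap24, and the median over all tested genes was 0.02. The change was smaller than the larger of the replicate differences within the groups in 23 of 29 genes (79.3%), beside 75.4% of all tested genes.

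**Figure D1:**
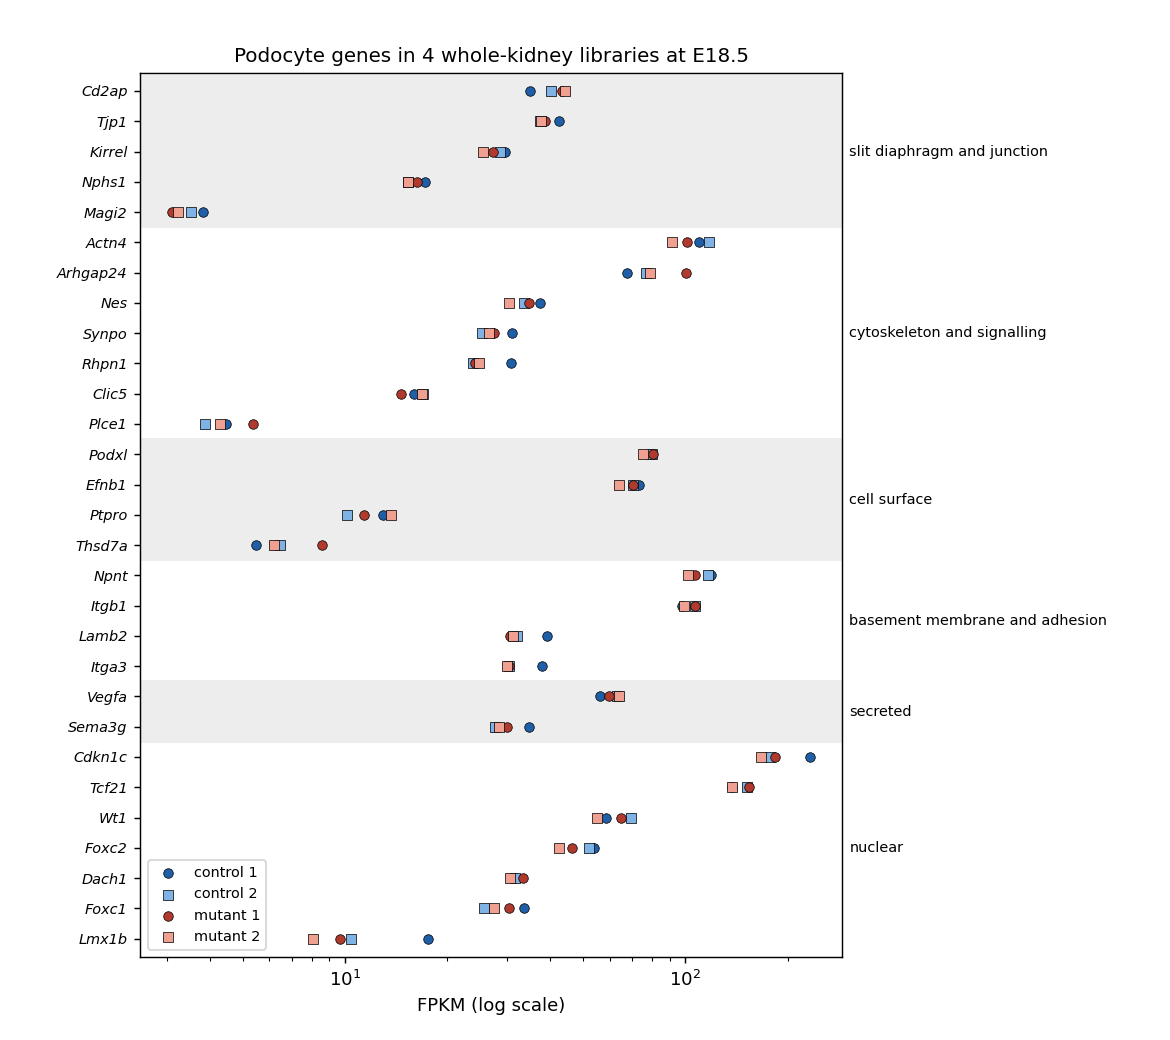
FPKM (log axis) of the 29 podocyte genes in each library, grouped by role and ordered by mean level within a role. Circles are replicate 1 and squares replicate 2, blue for control and red for mutant. The points of a gene mostly interleave, and Lmx1b in control replicate 1 (17.5 FPKM) stands apart from the other libraries (8.05 to 10.4).

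Nphs1 and Wt1, the markers given with the list and also members of it, were present in every library, which does not test the label. Nphs1, which encodes nephrin, the adhesion molecule that spans the slit (mm9 chromosome 7, 31245077 to 31273628 in control replicate 2 and mutant replicate 1), was at 17.2 and 15.4 FPKM in control and at 16.2 and 15.4 in mutant libraries. Wt1, the zinc finger transcription factor of nephron progenitors and podocytes, was at 58.6 and 69.2 FPKM in control and at 64.8 and 55.2 in mutant libraries. Mean levels of the 29 genes ran from 3.43 FPKM (Magi2) to 190 FPKM (Cdkn1c), with a median of 33.3. In whole kidney, fewer cells of a type and less RNA per cell cannot be told apart, and several of the genes are also made by other kidney cells.

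The promoters of 3 of these genes are shown because each stands for a different pattern below: Nphs1, the defining gene of the slit, with values that interleave; Npnt, with lower values in both mutant libraries; and Lmx1b, with the largest change. Each is the 250 bases upstream of a RefSeq start, 5′ to 3′ on the strand of the gene. The build is GRCm38.p6, whereas the expression tables use mm9. Where a gene had several windows, the one with the most matches to the 5 motifs below was shown, so it was chosen on its matches. Capitals mark a match to AGGTCA, the half-site of many nuclear receptors, which is the only one of the 5 motifs below found in these 3 windows.
Nphs1, plus strand, chr7:30459808-30460057: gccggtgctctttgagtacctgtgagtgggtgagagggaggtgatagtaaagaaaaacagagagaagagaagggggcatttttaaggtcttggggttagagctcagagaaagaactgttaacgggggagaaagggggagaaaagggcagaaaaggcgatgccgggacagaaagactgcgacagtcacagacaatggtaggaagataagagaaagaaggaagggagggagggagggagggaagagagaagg
Npnt, minus strand, chr3:132950292-132950541: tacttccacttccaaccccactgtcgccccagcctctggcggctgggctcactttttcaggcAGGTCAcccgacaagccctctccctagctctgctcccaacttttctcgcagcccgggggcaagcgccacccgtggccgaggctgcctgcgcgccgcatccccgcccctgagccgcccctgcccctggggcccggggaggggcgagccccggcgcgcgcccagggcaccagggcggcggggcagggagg
Lmx1b, minus strand, chr2:33641099-33641348: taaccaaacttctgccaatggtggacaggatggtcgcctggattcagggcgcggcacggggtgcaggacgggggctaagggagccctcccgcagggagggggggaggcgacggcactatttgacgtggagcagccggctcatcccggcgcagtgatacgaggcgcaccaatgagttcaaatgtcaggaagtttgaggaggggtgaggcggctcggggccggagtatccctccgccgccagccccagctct

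RefSeq windows were at hand for 22 of the 29 genes (26 windows), and 5 short motifs were searched on both strands in the same 250 bases. CAAAGTCCA, a motif of the HNF4 type, was in 0 of 26 windows and in 0.384% of all 32851 windows. AGGTCA was in 2 of 26, those of Clic5 and Npnt, beside 14.0% of all windows. The E-box CAGCTG, of the class bound by factors such as Tcf21, was in 4 of 26 (Cd2ap, Magi2, Sema3g and Thsd7a), beside 13.0%. TAATTA, a homeodomain core, was in 1 of 26 (Magi2) beside 4.84%, and GTAAACA, a forkhead core, in 0 of 26 beside 3.17%. These are matches of letters in a short window and do not show binding.

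Among the 5 genes of the slit diaphragm and its junctional adaptors, Nphs1 had a log2 change of -0.04 (95% interval -0.34 to 0.26). Kirrel, which encodes a nephrin-binding protein of the same slit, was at 29.6 and 28.5 FPKM in control and at 27.3 and 25.4 in mutant libraries, 90.8% of the control mean. Magi2, a scaffold that binds nephrin, was at 3.83 and 3.54 against 3.11 and 3.24 FPKM. Both lay lower in both mutant libraries than in either control, with adjusted p of 0.76 for Kirrel and 0.79 for Magi2. Cd2ap, the adaptor that links nephrin to actin, lay the other way, at 34.9 and 40.4 FPKM in control and at 43.5 and 44.2 in mutant libraries. Its log2 change was 0.22 (SE 0.10, adjusted p = 0.76). Tjp1, a scaffold of tight junctions and of the slit, overlapped between groups at 42.5 and 37.4 against 38.8 and 37.7 FPKM.

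Of the 7 genes of the cytoskeleton and its signals, Actn4, the actin-crosslinking alpha-actinin of foot processes (mm9 chromosome 7, from 29678273), was at 110 and 118 FPKM in control and at 102 and 91.8 in mutant libraries. The groups did not overlap, and the log2 change was -0.23 (SE 0.09), with an unadjusted p of 0.048 and an adjusted p of 0.68. Synpo, which encodes the actin-binding protein synaptopodin, was at 31.1 and 25.3 FPKM in control and at 27.4 and 26.5 in mutant libraries, so its mutant values lay within the control range. Arhgap24, a GTPase-activating protein for Rac, was at 67.6 and 76.6 FPKM in control and at 100.55 and 78.9 in mutant libraries. The groups did not overlap, but mutant replicate 2 lay close to the upper control, and the log2 change of 0.30 (SE 0.15) had an adjusted p of 0.76.

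Nes, the intermediate filament nestin, and Clic5, an actin-associated protein of foot processes, overlapped between groups. Nes was at 37.6 and 33.7 against 34.9 and 30.4 FPKM, and Clic5 at 15.9 and 17.0 against 14.6 and 16.8. Rhpn1 was at 30.8 FPKM in control replicate 1 and at 23.8, 24.1 and 24.7 in the other 3 libraries. Plce1, a phospholipase C of glomerular development, was at 4.48 and 3.87 FPKM in control and at 5.37 and 4.29 in mutant libraries. Its assembled locus began 43157 bp further upstream in mutant replicate 1, the library with the highest value, than its latest start, and the part of this in the FPKM was not tested.

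The cell surface genes gave values that interleaved. Podxl, the sialomucin podocalyxin that coats foot processes, was at 78.3 and 79.9 FPKM in control and at 80.5 and 75.0 in mutant libraries, with an interval of the log2 change from -0.22 to 0.17. Ptpro, a receptor phosphatase of the foot process surface, was at 13.0 and 10.1 against 11.3 and 13.7 FPKM. Thsd7a, a podocyte membrane protein, was at 5.47 and 6.45 against 8.56 and 6.19 FPKM, so that mutant replicate 1 alone was high. Efnb1, an ephrin ligand found at the slit, was at 73.2 and 70.3 against 70.3 and 64.1 FPKM. The groups overlapped for all 4, where over all tested genes 17.1% lay lower and 22.7% higher without overlap, and a list of 4 is too short to read a share from.

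In the group of basement membrane and adhesion, Npnt, the matrix protein nephronectin, was at 119 and 117 FPKM in control and at 107 and 102 in mutant libraries. Its groups did not overlap, with a log2 change of -0.18 (SE 0.07, unadjusted p = 0.053, adjusted p = 0.70). Lamb2, a laminin beta chain of the mature glomerular basement membrane, was at 39.3 and 32.1 against 30.5 and 31.1 FPKM, with control replicate 2 just above the mutant values. Its change of -0.20 was -0.06 without control replicate 1. The authors' deposited interval for Lamb2 ran from 0 to 164.6 FPKM in control replicate 1 and from 28.2 to 152 in mutant replicate 2, so these values are imprecise. Itga3 and Itgb1, the integrin subunits that together anchor the podocyte to laminin, were at 38.0 and 30.3 against 30.4 and 29.9 FPKM, and at 98.1 and 107 against 107 and 99.1. The joint row that holds Lama5 was at 43.4 and 30.2 FPKM in control and at 39.4 and 34.0 in mutant libraries.

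Both secreted factors overlapped between groups. Vegfa, the growth factor for glomerular endothelium, was at 56.2 and 63.3 FPKM in control and at 59.9 and 64.0 in mutant libraries, 104% of the control mean. Sema3g, a secreted semaphorin, was at 34.9 and 27.7 against 30.1 and 28.4 FPKM.

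The nuclear group held the largest change and also the highest levels. Lmx1b, a LIM homeodomain transcription factor of podocytes (mm9 chromosome 2), was at 17.5 and 10.4 FPKM in control and at 9.68 and 8.05 in mutant libraries, 63.4% of the control mean. Both mutant values lay under both controls, while the control libraries lay further apart from each other than control replicate 2 from mutant replicate 1. The log2 change was -0.57 (SE 0.27, 95% interval -1.30 to 0.16, adjusted p = 0.76), and without control replicate 1 it was -0.22. The authors' deposited interval for Lmx1b ran from 12.4 to 22.7 FPKM in control replicate 1 and from 6.54 to 13.0 in control replicate 2, and its assembled start differed by up to 1047 bp between libraries.

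Foxc1 and Foxc2, related forkhead factors, did not show the same pattern. Foxc2 (mm9 chromosome 8, 123640071 to 123642794 in every library) was at 53.8 and 52.4 FPKM in control and at 46.5 and 42.6 in mutant libraries, without overlap. Its log2 change was -0.25 (SE 0.08), with an unadjusted p of 0.032 and an adjusted p of 0.61, the smallest of the 29 genes. Foxc1 was at 33.7 and 25.6 against 30.4 and 27.4 FPKM, with both mutant values inside the control range and an interval from -0.45 to 0.40. The difference between these changes was not tested.

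Tcf21, a bHLH factor of podocytes and stroma, was at 137 and 152 FPKM in control and at 154 and 138 in mutant libraries, and the groups overlapped. Its values in control replicate 2 and mutant replicate 1 lay above their own deposited intervals, which ended at 144 and 145.8 FPKM. Dach1, a transcriptional cofactor, was at 31.7 and 31.5 against 33.3 and 30.6 FPKM. Cdkn1c, a cyclin-dependent kinase inhibitor of cells that have left the cycle, was at 234 FPKM in control replicate 1 and at 177, 183 and 167 in the other 3 libraries. Its interval was -0.64 to 0.20, and its change of -0.22 was -0.02 without control replicate 1. The interval of Wt1 was -0.43 to 0.25.

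**Figure D2:**
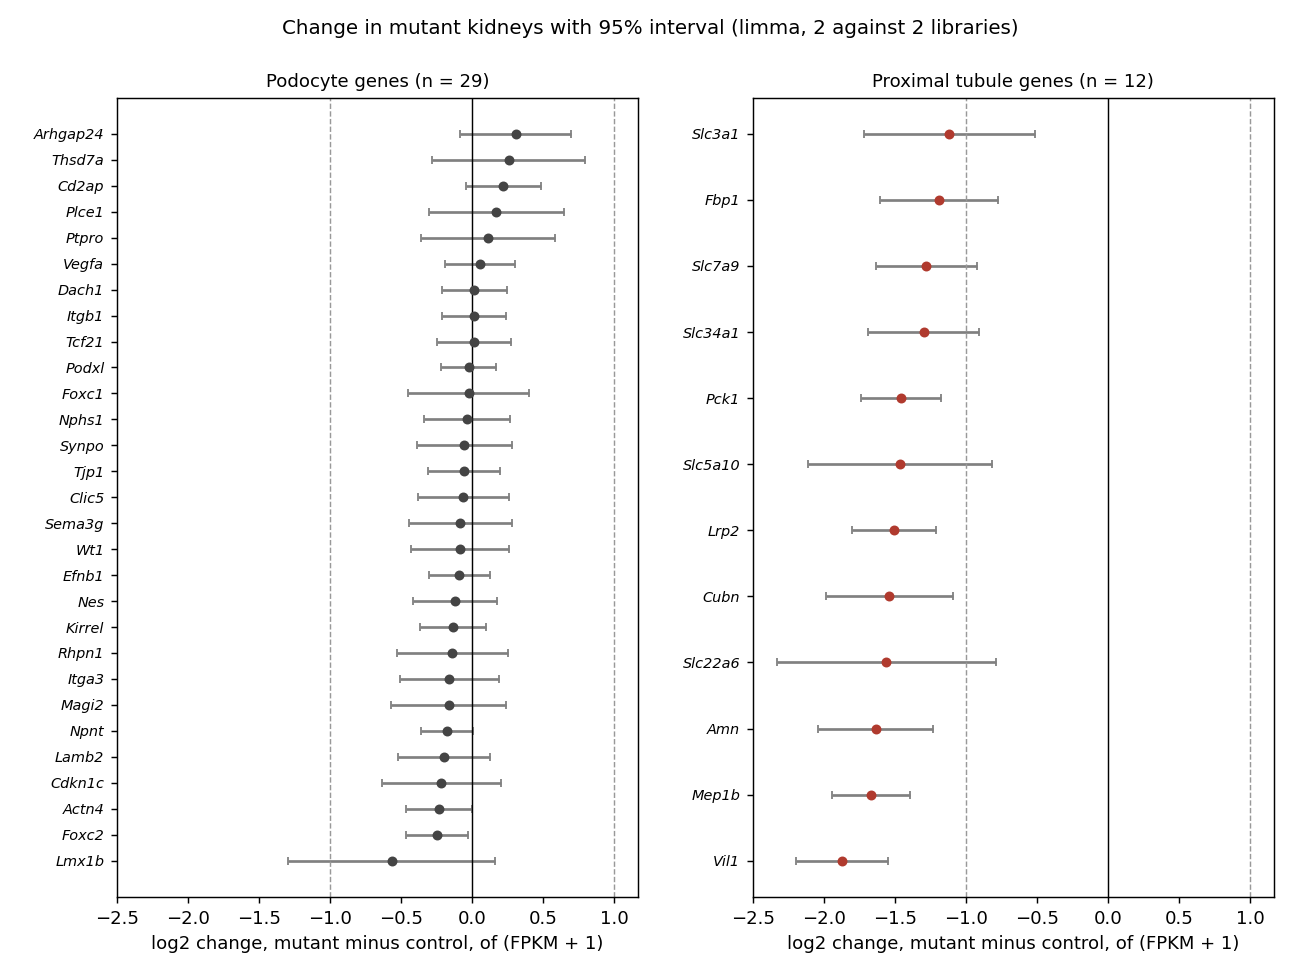
Log2 change of FPKM + 1, mutant minus control, with its 95% interval by limma (2 against 2 libraries), for the 29 podocyte genes at left and 12 proximal tubule genes at right, with dashed lines at -1 and 1. The podocyte points lie from -0.57 to 0.30, and the proximal tubule points from -1.87 to -1.12. Both lists were chosen with earlier results of these data known.

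Proximal tubule genes, measured in the same libraries, differed by more. They were listed with earlier results of these data known, so their lower values are no independent check. Of 12 such genes, 2 fell past the threshold, Vil1 and Mep1b, beside 0.158% of all tested genes. All 12 had an unadjusted p under 0.05 by limma, beside 7.24% of all tested genes. Each had a log2 change of -1.12 or lower, with a median of -1.49. The 2 with the highest mean were Slc34a1, the phosphate transporter, at 119 and 93.8 against 45.3 and 39.7 FPKM, and Fbp1, an enzyme of gluconeogenesis, at 107 and 82.0 against 37.8 and 43.0. The summed FPKM of the 12 was 567 and 482 in control and 183 and 199 in mutant libraries. The summed FPKM of the 29 podocyte genes was 1547 and 1486 in control and 1495 and 1381 in mutant libraries, and that of a core subset of 10 of them was 259 and 255 against 256 and 241. Wt1 and Podxl, which other kidney cells make too, had the highest levels of these 10. The difference between the proximal tubule and podocyte lists was not tested.

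Groups without overlap were 7 lower genes and 2 higher genes of the 29. The lower ones were Kirrel, Magi2, Actn4, Lamb2, Npnt, Foxc2 and Lmx1b (24.1%, beside 17.1% of all tested genes), and the higher ones Cd2ap and Arhgap24 (6.90%, beside 22.7%). Of the 29 changes, 20 were negative (69.0%), beside 44.7% of all tested genes. Of the 10 genes of the core subset (Nphs1, Podxl, Synpo, Ptpro, Clic5, Magi2, Plce1, Thsd7a, Rhpn1 and Wt1), 7 had a negative change and 1, Magi2, had groups without overlap. The median of these 10 was -0.05, and it was 0.04 without control replicate 1, so its sign rested on that library.

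**Figure D3:**
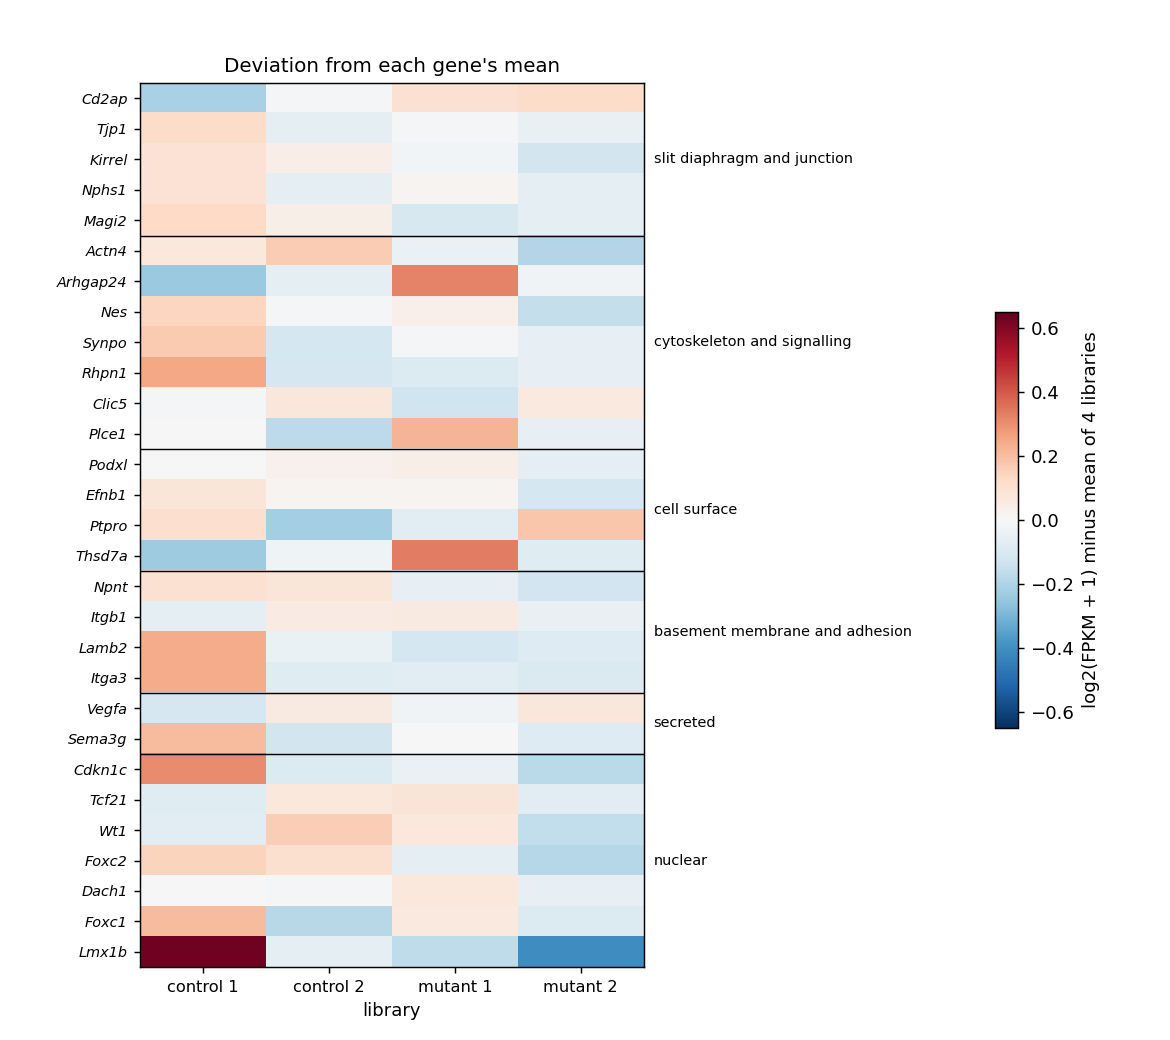
Deviation of log2(FPKM + 1) from the mean of the 4 libraries for each podocyte gene (rows) in each library (columns), red above and blue below the mean. Control replicate 1 holds the highest value of 16 genes and mutant replicate 2 the lowest of 13.

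Many of the podocyte genes were highest or lowest in the same library. Control replicate 1 held the highest value for 16 of 29 genes (55.2%, beside 27.9% of all tested genes), and mutant replicate 2 the lowest for 13 (44.8%, beside 20.8%). Control replicate 1 was above control replicate 2 in 19 of 29 genes (65.5%), beside 44.6% of all tested genes, and mutant replicate 1 was above mutant replicate 2 in 22 of 29 (75.9%), beside 47.1%. The difference between controls varied with transcript length. Over 4 classes of equal size, by the length of the longest coding transcript, the median log2 difference of control replicate 2 minus 1 was 0.09, 0.07, 0.02 and -0.07 from shortest to longest. That of mutant replicate 2 minus 1 was 0.01, 0.02, 0.01 and -0.01, and the median change 0.03, 0.03, 0.02 and 0.00. Of the 29 podocyte genes, 16 were in the class of longest transcripts, and the medians over all 29 were -0.06 for the controls, -0.10 for the mutants and -0.06 for the change. The part of length in the podocyte values was not tested.

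Markers of nephron progenitors and stroma were also mostly higher in control replicate 1 than in control replicate 2, beside 44.6% of all tested genes. For other lists the counts were 7 of 12 endothelial, 6 of 10 leukocyte, 5 of 9 early nephron and 4 of 8 mesangial genes. They were 3 of 7 for parietal epithelium, 0 of 4 for erythroid and 9 of 12 for proximal tubule genes. All 9 tested markers of nephron progenitors were higher in control replicate 1 than in control replicate 2, with a summed FPKM of 302 and 229 in control and 281 and 265 in mutant libraries, a median change of 0.05 (0.25 without control replicate 1) and 0 calls. Crym was at 59.0 and 52.7 against 59.4 and 60.6 FPKM, and Six2, the progenitor factor whose promoter drives the Cre, at 67.0 and 49.9 against 58.4 and 55.9. In the stroma list 8 of 9 were higher in control replicate 1, with sums of 721 and 643 against 651 and 573 FPKM. The median change there was -0.17 (-0.08 without control replicate 1), with 0 calls. The 0 calls in the progenitor and stroma lists stand beside 0.158% of all tested genes. Penk was at 153 and 152 against 136 and 135 FPKM, and Col3a1 at 138 and 123 against 125 and 109. Without overlap, 3 of the 9 stroma genes lay lower (33.3%, beside 17.1% of all tested genes) and 2 higher, Lum and Dcn (22.2%, beside 22.7%). Chosen after its values were seen, Lum was at 11.8 and 12.7 against 23.3 and 17.4 FPKM (unadjusted p = 0.014 and adjusted p = 0.45 by limma). Dcn was at 60.0 and 58.9 against 75.2 and 62.1 FPKM. Ntn1, chosen in the same way, was at 47.3 and 46.3 against 37.7 and 36.0 FPKM (unadjusted p = 0.0081, adjusted p = 0.34 by limma). The part of these cells in the podocyte values was not tested.

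Other genes of the podocyte and its filter gave no call. Of 27 further podocyte genes 0 passed the threshold, beside 0.158% of all tested genes. Without overlap, 6 lay lower (22.2%, beside 17.1% of all tested genes) and 6 higher (22.2%, beside 22.7%). Of the 27 changes 14 were negative (51.9%, beside 44.7% of all tested genes). The median was -0.01, with a range of -0.28 to 0.24. In 18 of the 27, control replicate 1 was above control replicate 2 (66.7%, beside 44.6% of all tested genes). The 4 with the highest mean were Bcam, Ezr, Slc9a3r2 and Myh9. Ezr, which encodes ezrin, the linker between podocalyxin and actin that also builds tubule microvilli, was at 108 and 110 FPKM in control and at 92.8 and 91.3 in mutant libraries, without overlap. Its unadjusted p of 0.015 was the single one under 0.05 in that list (3.70%, beside 7.24% of all tested genes), and its adjusted p was 0.47. Bcam, a laminin receptor, was at 146 and 141 against 137 and 132 FPKM, Slc9a3r2, a scaffold that binds podocalyxin, at 78.2 and 77.3 against 83.4 and 78.8, and Myh9, a nonmuscle myosin, at 89.7 and 72.03 against 71.8 and 65.4.

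Among 16 genes of basement membrane and its receptors 0 passed the threshold, beside 0.158% of all tested genes. There were 13 negative changes (81.25%, beside 44.7% of all tested genes), and the median was -0.14. Without overlap, 3 lay lower (18.75%, beside 17.1% of all tested genes) and 1 higher (6.25%, beside 22.7%). Without control replicate 1 the median was -0.02. In 15 of the 16, control replicate 1 was above control replicate 2 (93.75%, beside 44.6% of all tested genes). Col4a1 and Col4a2, collagen chains of basement membranes, were at 155 and 137 against 141 and 126 FPKM and at 123 and 101.2 against 104 and 92.4. Lamb1, the laminin beta chain of the immature membrane, was at 106 and 92.7 against 95.1 and 88.6 FPKM, and the proteoglycan Agrn at 102 and 87.4 against 88.8 and 80.3.

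Receptors and relatives of Vegfa, with 10 of 11 listed genes tested, had a median of -0.10. Of these 0 passed the threshold, beside 0.158% of all tested genes. Kdr, the main Vegfa receptor of endothelium, was at 33.2 and 34.1 FPKM in control and at 32.6 and 28.8 in mutant libraries. Vegfb was at 59.8 and 100.8 against 55.9 and 64.5 FPKM, and the plexins Plxnd1 and Plxna1 were at 76.2 and 65.8 against 69.7 and 64.3 and at 36.9 and 28.1 against 30.6 and 28.6. The neighbouring cells of the glomerulus gave no call either. The 12 endothelial genes had a median of 0.04 and sums of 612 and 601 against 598 and 626 FPKM, with Egfl7 at 81.7 and 97.2 against 90.1 and 104 and Cldn5 at 78.8 and 77.1 against 79.6 and 77.7. The 8 tested genes of mesangium and pericytes had a median of 0.00, with Acta2 at 81.9 and 85.2 against 90.4 and 69.9 FPKM and Mcam at 51.2 and 55.2 against 57.6 and 54.3. The 7 of parietal epithelium had a median of -0.11, with Krt8 at 102 and 111 against 94.6 and 96.9 FPKM and Krt18 at 77.4 and 75.4 against 79.4 and 91.7. Without overlap, 4 of these 7 lay lower, Krt8 among them (57.1%, beside 17.1% of all tested genes). Krt18 was the 1 that lay higher (14.3%, beside 22.7%). A list of 7 is too short to read a share from. Of the 12 endothelial genes 3 lay lower and 0 higher, and of the 8 mesangial genes 0 either way. Over all tested genes 17.1% lay lower and 22.7% higher, and lists of 12 and 8 are also too short to read a share from.

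The remaining lists of other cells held 0 calls as well, beside 0.158% of all tested genes. The 9 tested genes of early nephrons had a median change of -0.02, with Ccnd1 at 95.5 and 99.0 against 91.2 and 100.9 FPKM and Irx1 at 52.9 and 51.5 against 52.3 and 52.2. The 10 leukocyte genes had a median of 0.03, with C1qc at 22.1 and 20.4 against 23.8 and 29.2 FPKM and Tyrobp at 30.5 and 22.4 against 19.4 and 21.7. Of 8 erythroid genes 4 were tested, with a median of 0.31 (0.00 without control replicate 1), and Alas2 was at 16.9 and 20.2 against 26.5 and 27.6 FPKM and Slc4a1 at 2.84 and 5.39 against 4.03 and 5.69. Hbb-y, chosen after its values were seen, had the largest change of the 4, at 3.96 and 4.55 against 0.663 and 1.72 FPKM (log2 change -1.30, unadjusted p = 0.0088, adjusted p = 0.36 by limma). Of 8 adrenal genes 1 was tested, Mc2r, at 1.16 and 1.24 against 1.36 and 1.26 FPKM.

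Assembled loci were the same in all libraries for 12 of the 29 podocyte genes and differed by up to 200 bp for 10 and by more for 7 (Nphs1, Magi2, Synpo, Rhpn1, Plce1, Dach1 and Lmx1b). The Nphs1 locus overlapped Nphs1os, and that of Actn4 overlapped Capn12, both listed at 0 in all 4 libraries. Wt1 overlapped Wt1os in mutant replicate 2 alone, where Wt1os was at 7.84 FPKM and Wt1 had its lowest value. The sources do not say that strand was used, so reads of such overlapping genes cannot be assigned with certainty.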

How the data were processed

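FPKM values of poly(A) RNA from whole embryonic kidneys were computed by the authors, 1 library per deposited table. Cufflinks 2.1.1, TopHat2 2.0.11, SAMtools 0.1.19, Bowtie 1.0.0 and build mm9 are named per the submitters' processing notes, with options and annotation not given in the sources used. Named rows were joined by symbol and summed where a symbol recurred, without 99 symbols that had a row not marked OK. Genes reaching 1 FPKM in 2 or more libraries were fitted on log2(FPKM + 1) with limma 3.58.1 in R 4.3.3 (with trend; the model held group alone), and p-values were adjusted by Benjamini-Hochberg over 13287 genes, with a threshold of 0.05. Fold changes on this scale understate those of low genes, and absolute depth is unknown.

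Members and gene lists were chosen with earlier results of these data known. The rule named Hnf4a, every member, and of each pathway list the called genes or else the 4 of highest mean; lists of other cells are given as counts and medians with their 2 genes of highest mean. Transcript lengths came from GENCODE M21 for 91.0% of tested genes, and promoters from RefSeq. Results were recomputed under 15 alternatives (pseudocount, filter, scaling, variance model, repeated symbols, replicate block and each library left out).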

Additional observations from a re-analysis of the deposited data

How the results depend on the processing

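No podocyte gene was called under any of the 15 alternatives run. The number called over all genes (21) became 41 without a filter on low values, 33 with a filter at 5 FPKM, 11 without the mean-variance trend, 37 with robust eBayes and 6 with the replicate block, and 0 to 21 with 1 library left out. It was 0 without control replicate 1 and without control replicate 2, where 1014 and 2295 genes had an unadjusted p under 0.05. The podocyte genes at an unadjusted p under 0.05 (2) numbered 1 with scaling to the median log2 value, 0 without the trend, and 0 to 7 with 1 library left out. Over all tested genes 962 had such a p in the main fit, 961 with that scaling and 1019 without the trend. The 7 came without control replicate 2, where the count over all tested genes was higher too. Podocyte genes without overlap (9) numbered 16 to 23 with 1 library left out, when 1 value stands against 2. Of all tested genes, 62.3% to 80.1% did not overlap there. The median change of the core subset of 10 genes ran from -0.077 (without mutant replicate 1) to 0.037 (without control replicate 1), and that of all 29 stayed negative, from -0.15 to -0.03. The change of Lmx1b was -0.22 without control replicate 1 and -0.91 without control replicate 2. No change of a podocyte gene changed sign under the alternatives that kept all libraries, and up to 9 did with 1 library left out. The filters, variance models, choice of repeated row and replicate block left these estimates unmoved, so a sign could not change there. Only the pseudocounts and scalings tried it. Replicate numbers are shared between groups with no stated pairing, and replicate 1 and 2 differ by sex in both groups, so the block also removes a difference by sex. Across genes the correlation of the replicate differences of the groups was 0.15. Without read totals, no limit from depth can be given.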
